A study of Mus musculus with 8 samples.

Results

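Class I odorant receptors (ORs) were measured in the olfactory mucosa of knockout mice and littermate controls. In the knockouts, Lhx2 was deleted in mature olfactory sensory neurons (OSNs), and the study reports that the deletion did not reach all of them. The members are the transcript clusters of the array that the platform annotation assigns to a single gene symbol of the form Olfr plus a number, with the number 33, 64 to 69, 78 or 543 to 692, Olfr574 excepted and symbols ending in -ps left out. Olfr574 and its value are given below with the threshold. It gave 115 clusters of 114 genes, out of 35557 clusters on the array, of which 23410 carry at least 1 gene symbol. Olfr617 has 2 clusters. Olfr78 is not among them, because its cluster is shared with Olfr560. That cluster is 1 of 10 that carry several symbols, a class I symbol among them, and all 10 were left out. A transcript cluster combines the probes of all exons of a gene into 1 value.

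The array set holds 8 mice of 26 days of age, 4 knockouts and 4 controls, on a mixed 129 x C57BL/6J background, with 1 array for each mouse. The knockouts were OmpCre:Lhx2(fl/fl). Control replicates 2 to 4 were OmpCre:Lhx2(fl/+), so they carry Cre and can lose a single Lhx2 allele, and control replicate 1 was Lhx2(fl/+) without Cre. All 8 mice carry at least 1 floxed Lhx2 allele. The Cre gene sits in the Omp locus and is active in mature OSNs, so Lhx2 stays intact in the immature OSNs and basal cells of the same tissue. The mouse numbers in the titles begin with 5, 7 or 9. Title series 5 holds control replicates 1 and 2 and knockout replicates 1 and 2, title series 7 holds control replicate 3 and knockout replicate 3, and title series 9 holds control replicate 4 and knockout replicate 4. The labels do not say what the series stand for.

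Each mature OSN expresses a single OR gene, from a single allele, out of a very large gene family. Class I ORs are the branch that resembles the ORs of fish. In the mouse they lie in a single run of genes on chromosome 7, which surrounds the beta-globin genes, and they are expressed mainly in the dorsal zone of the olfactory epithelium. Many of those with known ligands respond to carboxylic acids and other hydrophilic odorants. Lhx2 is a LIM homeodomain transcription factor that binds OR promoters and enhancers. All 115 clusters have genes on chromosome 7, and 114 carry a family number of 42 or lower in the MOR naming scheme, the range used for class I. The exception, Olfr652, is listed as MOR318.

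The targeted gene was checked first. Lhx2 measured 12.39, 12.33, 12.29 and 12.33 on the log2 scale in the controls, listed here and below by replicate from 1 to 4, and 12.03, 11.99, 12.17 and 12.15 in the knockouts. Every knockout lay below every control, by 0.25 on the log2 scale on average (standard error, SE, 0.06, adjusted p = 0.0383, limma), and the call was kept in 1 of the 8 fits that left out a mouse. The cluster value averages probes inside and outside the deleted exons. It also averages RNA of cells without Cre and of mature OSNs that kept the gene, so its size does not measure the deletion. Of the 14 mature OSN markers, without Omp, 13 were called lower. The mean change over all 14 was -0.61 and the median -0.49, with the largest decrease in Cnga4 (-2.02). The study averaged a much larger set of mature OSN mRNAs in this strain and reported a small reduction. The size given here thus rests on the 14 markers chosen. The 5 sustentacular cell markers measured did not pass the test (mean change 0.04). Among 8 immature OSN markers, Tubb3 rose by 0.41 and Stmn4 fell by 0.59, and the mean change was 0.01. Of the 9 blood markers, 2 were measured by a cluster of their own, and their changes, 0.15 for Alas2 and 0.10 for Slc4a1, did not pass the test. In array values of whole mucosa, fewer cells that express a receptor and less receptor mRNA in each cell cannot be told apart. Separately, the study counted cells by in situ hybridization in this strain and reported fewer labelled cells for tested ORs with decreased mRNA.

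Class I ORs were lower in the knockouts as a group. Of the 115 clusters, 77 were called lower (67.0%) and 0 higher at an adjusted p under 0.05 in limma, against 6.29% of all clusters with a symbol called lower and 2.1% called higher. Each array was also centred on the mature OSN markers, which were themselves lower and are fewer than those the study scaled to. With this centring, 36 members were called lower and 13 higher, with a median change of -0.21. Under this centring, 763 of all 23410 clusters with a symbol were called lower and 21896 higher. Without it, no member was higher at an unadjusted p under 0.05 either, and none by the t test that the study's methods name. The change was negative for 112 of 115 members. The median change was -0.82 on the log2 scale, with quartiles at -1.16 and -0.50, whereas the median over all clusters with a symbol was 0.05. At least a 2-fold decrease was measured for 35 members. Every knockout was below every control for 78 members (67.8%), against 7.83% of all clusters with a symbol.

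**Figure D1:**
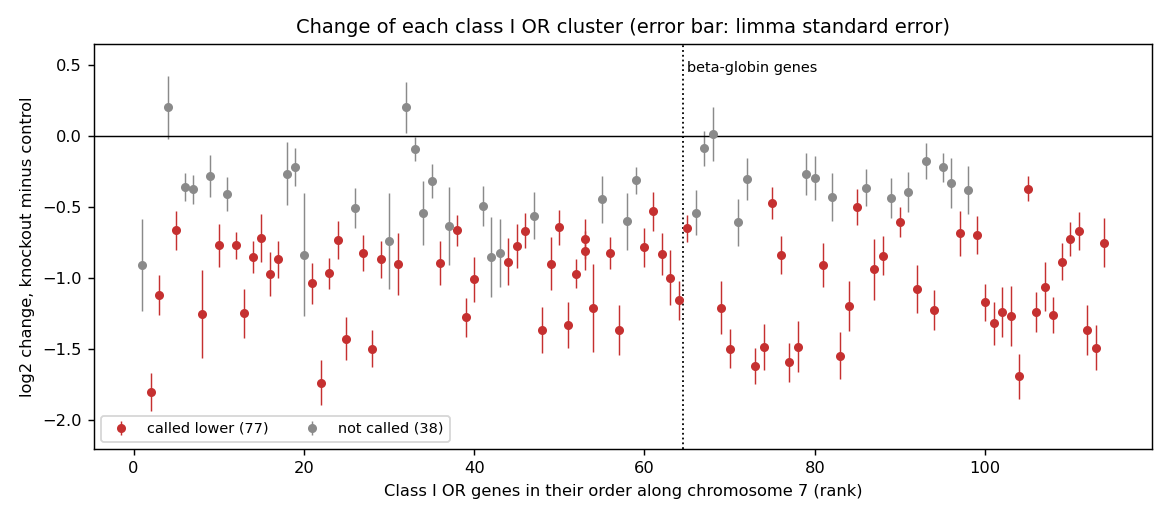
Change of each class I OR cluster, knockout minus control on the log2 scale, against the order of the genes along chromosome 7. Points are clusters and bars are limma standard errors. The 77 clusters called lower (red) are spread over the whole run, and the 38 not called (grey) include the 3 clusters above 0.

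The calls and the separation of the groups did not coincide for every member. Olfr552, Olfr586, Olfr611, Olfr618 and Olfr692 were called although the groups overlapped, and Olfr550, Olfr551, Olfr576, Olfr624, Olfr635 and Olfr657 were not called although every knockout lay below every control. The 38 members not called had a mean change of -0.39, and 35 of them were negative. At the threshold itself, Olfr618 (adjusted p = 0.0396) and Olfr630 (adjusted p = 0.0400) were the members just inside, with changes of -1.21 and -0.53, and Olfr635 (adjusted p = 0.0528) and Olfr551 (adjusted p = 0.0531) were just outside, with changes of -0.61 and -0.37 in limma. Olfr574, which the selection leaves out, had values of 5.68, 5.60, 5.66 and 5.81 in the controls and 5.74, 5.74, 5.68 and 5.67 in the knockouts, a change of 0.02 (SE 0.06, adjusted p = 0.896, limma). The study reported its mRNA as increased in this strain, after scaling to mature OSN mRNAs. The value given here is without that scaling.

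The largest decrease was that of Olfr544, a receptor known to respond to azelaic acid and other dicarboxylic acids. It measured 8.75, 8.89, 8.16 and 8.64 in the controls, and 6.89, 6.86, 6.73 and 6.78 in the knockouts. The groups were far apart, and the 4 knockouts lay within a narrower range than the controls. The change was -1.80 (SE 0.14, adjusted p = 1.39e-05, limma), or 3.48-fold lower. Its neighbour Olfr545, which also responds to dicarboxylic acids, measured 9.01, 9.33, 8.68 and 9.21 in the controls and 7.99, 8.0, 8.09 and 7.68 in the knockouts. This was 2.17-fold lower, a change of -1.12 (SE 0.14, adjusted p = 0.000459, limma), again without overlap.

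Olfr570 had the next largest decrease. It measured 8.97, 8.95, 8.57 and 8.98 in the controls and 7.07, 7.44, 7.32 and 6.70 in the knockouts, a change of -1.74 (SE 0.16, adjusted p = 4.89e-05, limma). Control replicate 3 was apart from the other controls, and knockout replicate 4 was the lowest of all. Olfr677 measured 9.57, 9.68, 9.34 and 9.91 in the controls and 7.90, 8.07, 8.24 and 7.53 in the knockouts, a change of -1.69 (SE 0.16). Olfr639 measured 9.76, 10.03, 9.44 and 9.87 in the controls and 8.14, 8.27, 8.29 and 7.94 in the knockouts, a change of -1.62 (SE 0.13). In both, control replicate 3 was the lowest control and knockout replicate 4 the lowest knockout. The other members with the largest decreases were Olfr643 (-1.59), Olfr651 (-1.54), Olfr578 (-1.49) and Olfr633 (-1.49), and each was called with no overlap between the groups. In the order along the chromosome these 8 members did not sit together: Olfr544 is at place 2 of the 114 genes, Olfr570 at 22, Olfr578 at 28, Olfr633 at 70, Olfr639 at 73, Olfr643 at 77, Olfr651 at 83 and Olfr677 at 104.

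The other members with a known ligand, tissue or place also fell, with exceptions beside the beta-globin genes. Olfr558, a receptor for short-chain carboxylic acids, measured 8.87, 8.84, 8.63 and 9.01 in the controls and 7.73, 8.07, 8.21 and 7.93 in the knockouts, a change of -0.85 (SE 0.11, adjusted p = 0.000706, limma). Olfr691 measured 8.83, 9.04, 8.57 and 8.97 in the controls and 7.13, 7.44, 7.79 and 7.09 in the knockouts, a change of -1.49 (SE 0.16, adjusted p = 0.000155, limma). Both were without overlap. Olfr690 (-1.36, SE 0.18), Olfr615 (-1.33, SE 0.16) and Olfr33 (-0.72, SE 0.17) were called lower as well. For Olfr33 the call was lost when any of 4 mice was left out, since it was called in 4 of the 8 fits that left out a mouse. Olfr692, whose mRNA has also been found in the vomeronasal organ, measured 9.44, 9.15, 9.06 and 9.39 in the controls and 8.32, 8.29, 9.07 and 8.38 in the knockouts. Its change was -0.75 (SE 0.17, adjusted p = 0.0216, limma), and knockout replicate 3 was as high as the lowest control, so that the call was kept in 3 of the 8 fits that left out a mouse.

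The genes beside the beta-globin genes differed in size of change. In the order along chromosome 7, Olfr69, Olfr68 and Olfr67 come before them and Olfr66, Olfr64 and Olfr65 after them. Before them, Olfr69 fell by 0.83 (SE 0.15), Olfr68 by 0.99 (SE 0.20) and Olfr67 by 1.16 (SE 0.13), and in each the groups did not overlap. After them, Olfr66 fell by 0.65 (SE 0.10), whereas Olfr64 and Olfr65 did not pass the test. Olfr64 measured 8.87, 8.93, 9.01 and 9.28 in the controls and 8.07, 8.59, 8.88 and 8.40 in the knockouts (-0.54, SE 0.16, adjusted p = 0.0747, limma). Olfr65 measured 8.79, 8.97, 8.87 and 9.18 in the controls and 8.52, 8.99, 9.06 and 8.90 in the knockouts (-0.09, SE 0.13, adjusted p = 0.783, limma). The 2 groups of Olfr65 overlapped in part, with the lowest knockout (8.52) below every control and the highest control (9.18) above every knockout. The beta-globin genes measured between them, Hbb-bh2 (-0.10), Hbb-bh1 (0.20) and Hbb-y (-0.05), did not pass the test either.

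**Figure D2:**
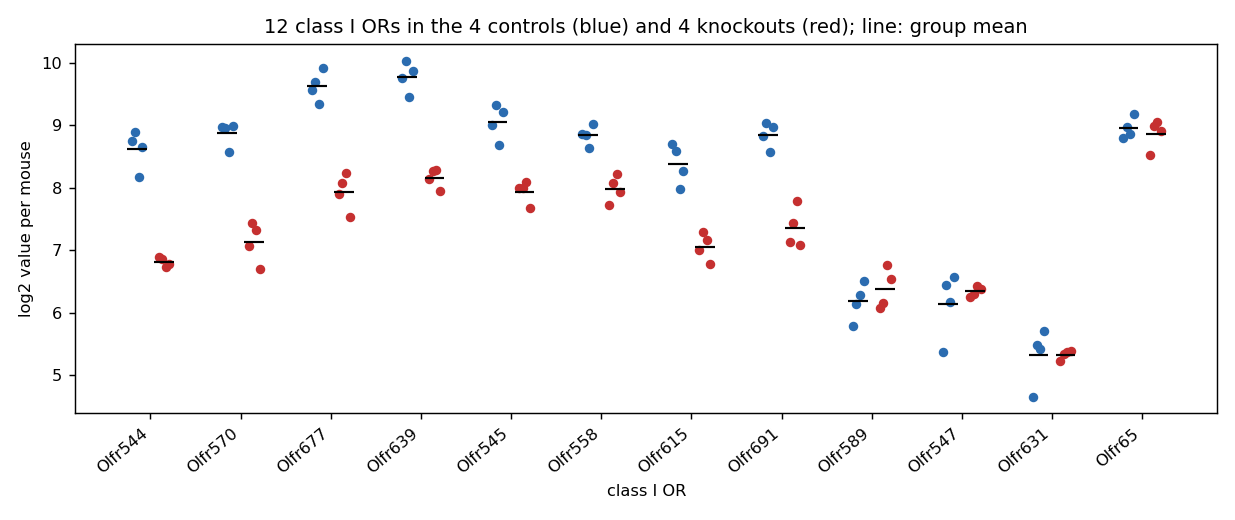
Log2 value per mouse of 12 class I ORs, with the 4 controls in blue, the 4 knockouts in red and the group mean as a line. From the left stand the 4 largest decreases, then Olfr545, Olfr558, Olfr615 and Olfr691, and then the 4 highest changes, where the groups overlap.

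At the other end, 3 members had a change above 0, and none passed the test. Olfr589 measured 5.79, 6.14, 6.29 and 6.51 in the controls and 6.08, 6.16, 6.77 and 6.53 in the knockouts (0.20, SE 0.18, adjusted p = 0.622, limma). Olfr547 measured 5.36, 6.44, 6.17 and 6.57 in the controls and 6.25, 6.30, 6.43 and 6.38 in the knockouts (0.20, SE 0.22, adjusted p = 0.696, limma). Olfr631 measured 4.66, 5.48, 5.42 and 5.71 in the controls and 5.23, 5.34, 5.38 and 5.38 in the knockouts (0.01, SE 0.19, adjusted p = 0.981, limma). In all of these control replicate 1 was the lowest of the 8 mice. The other controls overlapped with the knockouts for Olfr589 and Olfr547 and lay above them for Olfr631. Olfr65 (-0.09), Olfr591 (-0.09) and Olfr663 (-0.18) were the next highest. Of these, Olfr591 had values of 8.62, 8.55, 8.71 and 8.87 in the controls and 8.57, 8.58, 8.74 and 8.50 in the knockouts, which overlap almost wholly (SE 0.08).

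The 4 members with the highest array values in the controls were Olfr672, Olfr633, Olfr592 and Olfr549. Array values of different probes do not rank the mRNAs, so this only picks members far from the background. Olfr672 measured 10.20, 10.35, 9.88 and 10.55 in the controls and 8.87, 8.98, 9.22 and 8.65 in the knockouts, a change of -1.32 (SE 0.15, adjusted p = 0.000251, limma). Olfr549 fell by 0.66 (SE 0.14), also without overlap. Olfr592 measured 9.95, 9.59, 9.81 and 10.27 in the controls and 8.80, 9.28, 9.95 and 9.44 in the knockouts, where knockout replicate 3 lay above the lowest controls (-0.54, SE 0.22, adjusted p = 0.232, limma). Over the 115 members, the change went with the mean control value with Pearson's r of -0.44 and Spearman's rho of -0.36. This is a correlation across clusters of the same 8 arrays, and the control value enters both quantities.

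Along the number order a decrease was measured in every bin. Among members outside the run of numbers, 5 of 7 were called lower, with a median change of -0.72. From Olfr543 to Olfr572 the count was 14 of 23 (median -0.83), from Olfr573 to Olfr602 it was 9 of 17 (median -0.74), from Olfr603 to Olfr632 it was 16 of 23 (median -0.81), from Olfr633 to Olfr662 it was 15 of 23 (median -0.83) and from Olfr663 to Olfr692 it was 18 of 22 (median -0.97). The share called thus ran from 52.9% in Olfr573 to Olfr602 to 81.8% in Olfr663 to Olfr692, and decreases of at least 2-fold were measured for 4 of 17 and 11 of 22 members in these bins. The differences between bins were not tested. Over the 108 members of the run, the change and the number had a Pearson's r of -0.11 and a Spearman's rho of -0.09. The numbers follow the order of the genes along chromosome 7 (rho 1), and with place in the RefSeq gene table over all 115 members the rho was again -0.09. Members next to each other on the chromosome differed by 0.36 in the median, against 0.43 for all pairs of members.

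**Figure D3:**
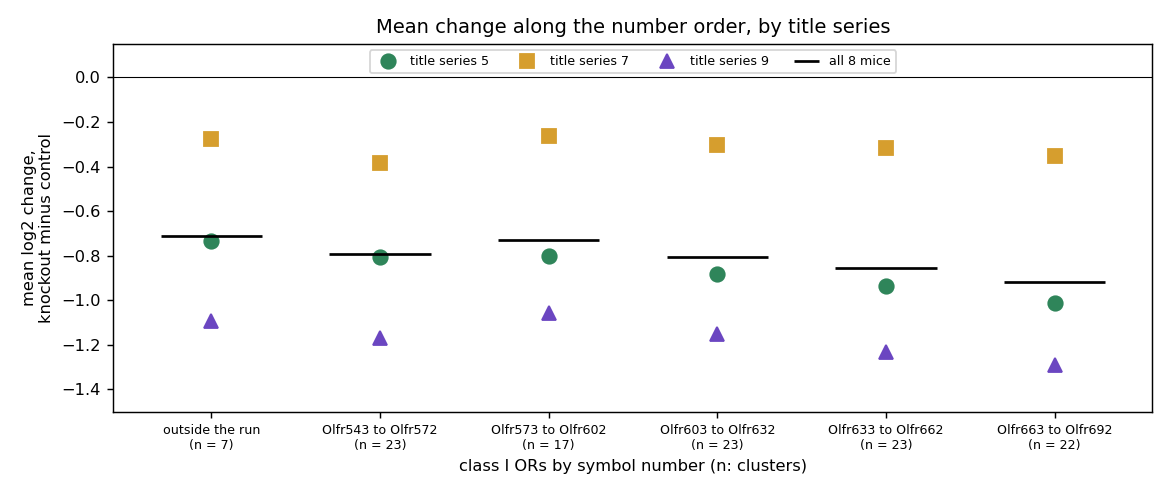
Mean change, knockout minus control on the log2 scale, of the class I ORs in 6 bins of symbol number, with n as the number of clusters. Lines are the change over all 8 mice, and symbols the change within title series 5, 7 and 9. In each bin the decrease is smallest in series 7 and largest in series 9.

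By MOR family, 9 families held 4 or more clusters, 59 clusters in all. Families with larger decreases were MOR8 (3 of 4 called, median -1.16), MOR13 (5 of 6, -1.16), MOR40 (5 of 7, -1.06) and MOR32 (8 of 10, -1.03). MOR31, to which Olfr690, Olfr691 and both clusters of Olfr617 belong, had 9 of 12 called (median -0.86). Smaller decreases were measured in MOR1 (1 of 4, -0.57), MOR24 (0 of 4, -0.40) and MOR34 (3 of 7, -0.39). The 4 members of MOR1 are Olfr623, Olfr64, Olfr65 and Olfr66, and those of MOR24 are Olfr591, Olfr593, Olfr601 and Olfr605. In MOR24, 3 of the 4 were lower at an unadjusted p under 0.05 in limma, and 0 were called by the t test after adjustment. MOR14 had 1 of 5 called, with a median of -0.74. Its members Olfr564, Olfr568 and Olfr585 were called only when control replicate 1 was left out (adjusted p = 0.0329, 0.000459 and 0.00241, limma). Members of a family share sequence and may share signal on the array, so they are not independent measurements. Both clusters of Olfr617 were called, with changes of -0.72 (SE 0.14) and -0.81 (SE 0.14).

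The size of the class I decrease differed between mice more than that of the other ORs. The mean log2 value over the 115 clusters was 8.43, 8.52, 8.19 and 8.64 in the controls and 7.47, 7.71, 7.86 and 7.45 in the knockouts. The mean was thus 8.44 ± 0.19 (SD, n = 4) in controls and 7.62 ± 0.20 (SD, n = 4) in knockouts, a decrease of 43.2% as a geometric mean. Control replicate 3 was the lowest control for 88 of 115 members and control replicate 4 the highest for 67. Knockout replicate 3 was the highest knockout for 87 members, and knockout replicates 4 and 1 were the lowest for 59 and 49. The mean difference was -0.88 within title series 5, -0.32 within title series 7 and -1.18 within title series 9. It was negative for 112, 87 and 114 of 115 members in these series, and in all 3 for 86. Series 7 and series 9 each rest on 1 mouse of each genotype. Series 7 gave the smallest decrease for 109 members and series 9 the largest for 97. The order of the members was shared between the series, since the changes correlated with r of 0.71 (series 5 and 7), 0.81 (series 5 and 9) and 0.77 (series 7 and 9) across the 115 clusters, as a description.

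Single members differed widely between the series. Olfr552 measured 9.43, 8.97, 7.78 and 8.89 in the controls and 7.66, 7.40, 7.91 and 7.10 in the knockouts, so that its difference was -1.67, 0.13 and -1.79 in series 5, 7 and 9. Olfr586 measured 9.72, 9.63, 9.19 and 10.07 in the controls and 8.51, 8.86, 9.27 and 8.38 in the knockouts, with differences of -0.99, 0.09 and -1.69. Olfr605 measured 9.13, 8.83, 8.09 and 8.82 in the controls and 7.56, 8.06, 8.37 and 7.59 in the knockouts, with differences of -1.17, 0.28 and -1.23. In these 3 members knockout replicate 3 was above control replicate 3, while the other 6 mice were clearly apart by genotype. Olfr676, the other member of the 4 with the widest range over the series, had differences of -1.31, -0.41 and -2.04. Of the 4, Olfr605 was not called with all mice (adjusted p = 0.0693) and was called without series 7 (adjusted p = 0.00163, limma), and the others were called in both fits. Without knockout replicate 3, 86 members were called lower, as were 1389 of all 23410 clusters with a symbol. Without both mice of series 7, a choice made after seeing the data, 89 members were called.

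**Figure D4:**
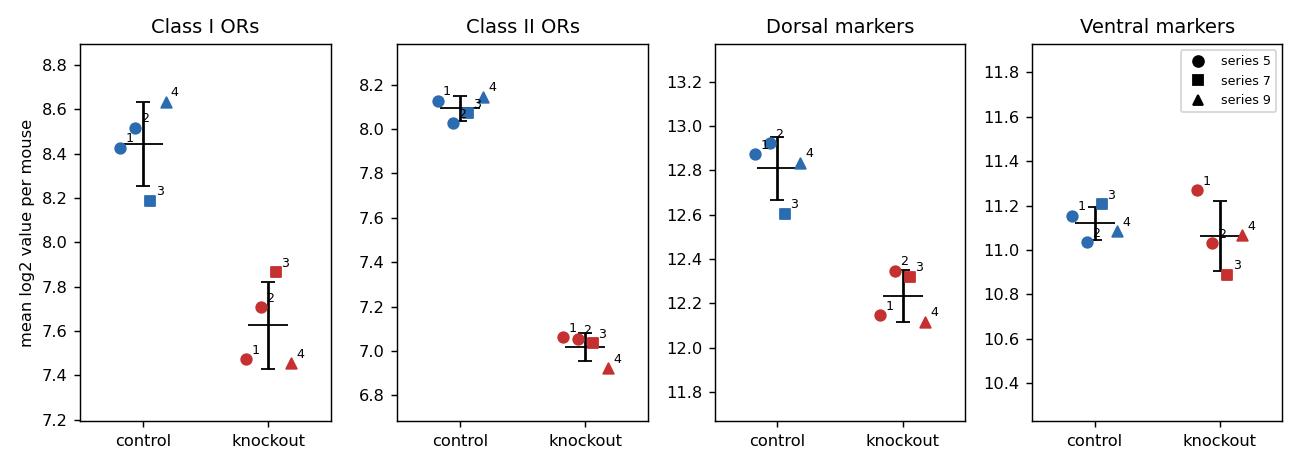
Mean log2 value per mouse of the class I ORs (115 clusters), the class II ORs (907), the dorsal zone markers (2) and the ventral zone markers (2). Numbers beside the points are replicate numbers, symbols are title series, and lines with bars are the mean and SD of 4 mice. Class I and dorsal values are lowest among the controls in control replicate 3, while class II values lie close together within each genotype.

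The class II ORs, the other branch of the family, were steadier between mice. Of 907 class II clusters, 776 were called lower (85.6%), with a median change of -1.09. Their mean log2 value had an SD of 0.05 among controls and 0.06 among knockouts, and the mean differences were -1.02, -1.04 and -1.23 in series 5, 7 and 9. The 104 class II clusters whose genes also lie on chromosome 7 gave 88 lower calls and a mean change of -1.12. The mean class I change was 0.26 less negative than that of class II over all mice, and 0.14, 0.71 and 0.04 less negative in series 5, 7 and 9. Without both mice of series 7 the difference was 0.11. This difference between the classes was not tested, and it was largest in series 7. The trace amine-associated receptors (TAARs), whose neurons are also mainly dorsal, had a mean change of -1.64 over 12 clusters, with -1.68, -1.29 and -1.90 in series 5, 7 and 9, so that series 7 gave the smallest decrease there too.

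Markers of the zones of the epithelium, 2 genes for each zone, were read beside the class I means. The mean of the dorsal markers Nqo1 and Acsm4 was 12.87, 12.92, 12.61 and 12.84 in the controls and 12.15, 12.35, 12.32 and 12.12 in the knockouts, lowest in control replicate 3 among the controls and lowest in knockout replicates 1 and 4 among the knockouts, as for class I. The highest dorsal means were in control replicate 2 and knockout replicate 2, whereas class I was highest in control replicate 4 and knockout replicate 3. The differences were -0.65, -0.29 and -0.72 in series 5, 7 and 9. The mean of the ventral markers Ncam2 and Nrp2 was 11.15, 11.03, 11.21 and 11.08 in the controls and 11.27, 11.03, 10.89 and 11.07 in the knockouts, highest in control replicate 3 and lowest in knockout replicate 3. Nqo1, a quinone reductase, fell by 1.15 (SE 0.11) and was called, whereas Acsm4 measured -0.01 (SE 0.08), so the pair did not change together by genotype, and none of the ventral markers was called. The mature OSN markers had mean differences of -0.59, -0.66 and -0.62 in series 5, 7 and 9. The part of dorsal and ventral tissue in the class I values was not tested.

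Control replicate 1, the only control without Cre, stood apart from the other controls for a few class I ORs. It differed by at least 1 log2 unit from the mean of the 3 other controls for 7 of 115 class I clusters (6.09%), 5 of them lower and 2 higher, against 5 of 907 class II clusters (0.551%) and 1 of the 104 class II clusters of chromosome 7. The SD of its deviations over the class I clusters was 0.42, against 0.21, 0.26 and 0.23 for control replicates 2, 3 and 4. Olfr568 measured 7.27 in control replicate 1 and 9.47, 9.07 and 9.58 in the other controls, against 7.85, 8.09, 8.30 and 7.83 in the knockouts. Olfr585 measured 5.52 in control replicate 1 and 7.09, 6.68 and 7.44 in the other controls, against 5.78, 6.15, 5.90 and 5.93 in the knockouts. In both, control replicate 1 was below all 4 knockouts, and the controls with Cre were above all of them. The same held in part for Olfr543, with 8.18 in control replicate 1, 9.37, 9.31 and 9.86 in the other controls and 7.98, 8.09, 8.85 and 8.17 in the knockouts. Olfr603 measured 6.79 in control replicate 1 and 8.11, 7.66 and 8.05 in the other controls, against 6.80, 6.93, 7.16 and 6.32 in the knockouts. Olfr547, described above, was the fifth of the low members. Olfr597 (9.24 against 8.60, 7.81 and 8.19) and Olfr618 (9.48 against 8.78, 7.71 and 8.66) were the high ones. In all, control replicate 1 was below the 7 other mice for 6 members.

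**Figure D5:**
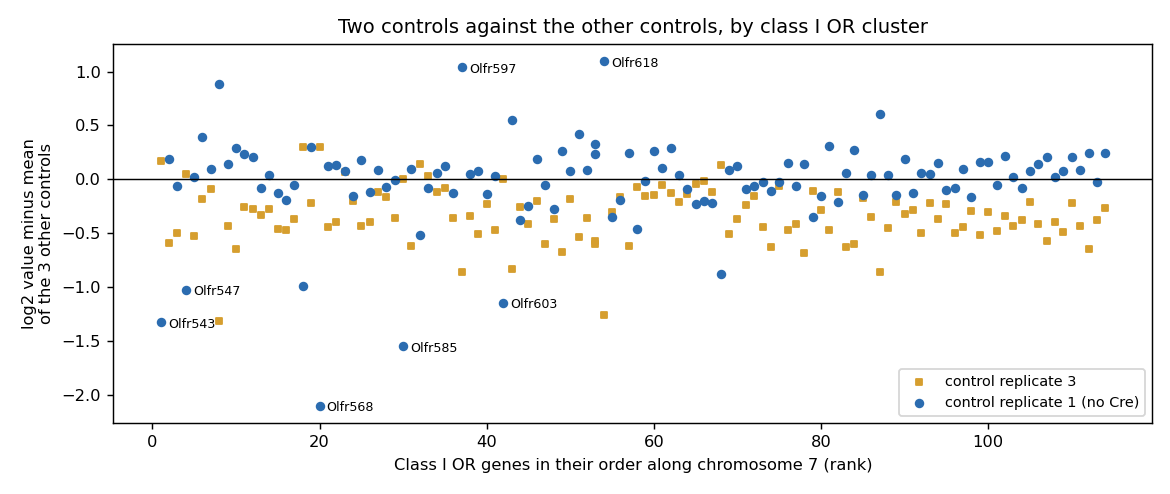
Log2 value of control replicate 1 (blue, without Cre) and control replicate 3 (yellow) minus the mean of the 3 other controls, for each class I OR cluster in the order along chromosome 7. The 7 clusters at least 1 log2 unit away in control replicate 1 are named, and they lie among places 1 to 54, while control replicate 3 is low over the whole run.

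Leaving out control replicate 1 keeps only the 3 controls that carry Cre, and it changed which members were called. Without control replicate 1, 72 members were called lower, against 5.57% of all clusters with a symbol. Of these, 5 were not called with all mice, namely Olfr543, Olfr564, Olfr568, Olfr585 and Olfr603, and 10 were lost. Olfr568 went from -0.83 (SE 0.43, adjusted p = 0.363) to -1.36 (SE 0.15, adjusted p = 0.000459) in limma. Olfr585 went from -0.74 (adjusted p = 0.288) to -1.13 (adjusted p = 0.00241), Olfr543 from -0.91 (adjusted p = 0.153) to -1.24 (adjusted p = 0.00678) and Olfr603 from -0.85 (adjusted p = 0.119) to -1.14 (adjusted p = 0.00553) in the same limma fits. Olfr547, in contrast, went from 0.20 to -0.05 and was called in neither. The lost members were Olfr552, Olfr586, Olfr618, Olfr630, Olfr641, Olfr653, Olfr655, Olfr668, Olfr678 and Olfr692. These were called in 1 to 3 of the 8 fits that left out a mouse, so their loss was not particular to control replicate 1. The 5 gained were called in 1 of the 8, that without control replicate 1. Omp, where Cre was inserted, lies on chromosome 7 as well, with 147 genes of the RefSeq table, 74 of them protein coding, between it and Olfr543. The absence of Cre and anything else particular to this mouse cannot be told apart.

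Genes other than ORs inside the run were read beside the receptors. There were 19 such genes measured between Olfr543 and Olfr692, among them Trim, Usp17l, Ubqln and beta-globin genes and Olfm5. By limma 0 were called and 0 had an unadjusted p under 0.05, and 0 were called by the t test after adjustment. Of all clusters with a symbol, 6.29% were called lower and 2.1% higher, so 0 of 19 does not set these genes apart. The median change of the 19 genes was 0.11, with a range from -0.10 to 0.30, against 0.05 over all clusters with a symbol and -0.82 over the class I ORs. The lowest p was that of Hbb-bh1, with 4.85, 4.85, 4.79 and 4.86 in the controls and 5.05, 4.81, 5.02 and 5.26 in the knockouts (0.20, SE 0.09, adjusted p = 0.282, limma).

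Genes known to act in OR gene choice and OR trafficking were read from a list of 22 genes, of which 7 were called lower and 0 higher by limma. At an unadjusted p under 0.05 limma gave 2 higher, Emx2 (0.17, SE 0.07) and Cbx5 (0.16, SE 0.06). The t test gave 1 higher after adjustment. Besides Lhx2, the genes called lower were Ebf3, of the Olf/Ebf factors (-0.22, SE 0.05), the signalling enzyme Adcy3 (-0.98, SE 0.12) and Atf5, a factor of the feedback that follows OR expression (-0.43, SE 0.06). The receptor transporters Rtp1 (-0.33, SE 0.07) and Rtp2 (-0.42, SE 0.06), and Ric8b, a partner of the olfactory G protein (-0.53, SE 0.06), were also called lower. Adcy3, Rtp1 and Ric8b are also in the mature OSN marker list, which fell as a whole. Of the 7 genes called lower, only Adcy3 fell by more than the mean change of that list (-0.61). Adcy3, Atf5, Rtp2 and Ric8b were called in every fit that left out a mouse. Rtp1 was called in 7 of the 8, and Ebf3 and Lhx2 in 1 of the 8 each. Bcl11b, a factor known to bias OSNs between class I and class II receptors, measured 9.79, 9.85, 9.59 and 9.80 in the controls and 9.76, 9.72, 9.73 and 9.58 in the knockouts (-0.06, SE 0.07, adjusted p = 0.745, limma), so that no difference beyond the spread was seen.

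Since Lhx2 is a homeodomain factor, the sequence before the members was searched for the letters of homeodomain sites. RefSeq promoter windows of build GRCm38.p6, from 250 bases before to 50 after the gene start, were found for 98 of the 114 genes. In 71 of these the gene model begins at the start codon, so the window may not hold the true promoter. On either strand, TAATTA stood in 14 of 98 windows (14.3%), against 19.0% of 768 class II windows and 5.29% of 32851 windows of all genes. TAAT, which TAATTA contains, stood in 94.9% of class I windows, 94.9% of class II windows and 58.0% of all windows. CCCNNGGG, the core of an Olf/Ebf site, stood in 2.04% of class I windows, 2.99% of class II windows and 13.7% of all. Among class I windows, 0 of the 71 with a gene model beginning at the start codon held it, and 2 of the other 27. The class I windows are rich in A and T, 62.3% against 46.2% over all windows, which bears on how often such letters occur. Among the members, TAATTA stood in 6 of 65 windows of genes called lower and in 8 of 33 of those not called.

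The windows of 3 members are shown to set the largest decreases beside a member that did not pass the test, for gene models that do not begin at the start codon. Each is written from 5′ to 3′ on the strand of the gene, with matches to TAAT or its reverse ATTA and to CCCNNGGG in capitals. Olfr544 (chr7:102488258-102488557, minus strand) and Olfr570 (chr7:102900092-102900391, plus strand) had the largest decreases, and Olfr631 (chr7:103914812-103915111, plus strand) had a change of 0.01.
Olfr544: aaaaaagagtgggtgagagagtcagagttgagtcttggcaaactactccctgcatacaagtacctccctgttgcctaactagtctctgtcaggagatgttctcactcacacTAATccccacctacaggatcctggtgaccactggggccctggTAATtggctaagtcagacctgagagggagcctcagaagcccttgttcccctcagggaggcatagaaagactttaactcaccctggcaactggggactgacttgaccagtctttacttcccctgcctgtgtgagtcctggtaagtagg
Olfr570: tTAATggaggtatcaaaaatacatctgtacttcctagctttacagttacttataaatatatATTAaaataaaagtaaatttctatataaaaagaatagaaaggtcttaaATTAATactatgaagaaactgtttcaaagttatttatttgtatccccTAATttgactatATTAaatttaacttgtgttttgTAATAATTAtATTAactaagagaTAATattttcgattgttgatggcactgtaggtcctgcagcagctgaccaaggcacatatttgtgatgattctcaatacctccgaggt
Olfr631: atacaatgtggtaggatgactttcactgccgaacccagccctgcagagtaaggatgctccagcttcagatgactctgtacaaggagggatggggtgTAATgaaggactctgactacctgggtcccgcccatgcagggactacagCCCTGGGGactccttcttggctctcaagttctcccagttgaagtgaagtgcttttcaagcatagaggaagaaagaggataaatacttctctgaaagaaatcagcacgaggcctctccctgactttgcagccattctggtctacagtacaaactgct
The counts of matches differ among the windows. Olfr570 holds 11 matches to TAAT on either strand, 1 TAATTA among them, whereas Olfr544, with a decrease as large, holds 2 and Olfr631 holds 1. A match is a run of letters and was not tested as a binding site.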

How the data were processed

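RNA of the olfactory mucosa of 4 knockout and 4 control mice was measured on Affymetrix Mouse Gene 1.0 ST arrays, 1 array per mouse. The deposited log2 values, 1 per transcript cluster, were made by the authors with Affymetrix Expression Console, per the labels. Version, normalization settings and genome build: not given in the sources used here. Deposited log2 values lay between 2.35 and 14.64 and no detection call is used here, so their number, 8 arrays, limits the precision. Cluster names come from the platform annotation (23410 clusters with a symbol, 21789 with a single symbol, 21698 of these matched to RefSeq by gene ID).

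Knockout and control were compared with limma 3.58.1 in R 4.3.3 (lmFit, eBayes) over the 23410 clusters, without covariate or filter, and p-values were adjusted by Benjamini-Hochberg. A cluster was called at an adjusted p under 0.05. The script was tested on simulated data. Groups follow the genotype labels. Replicate numbers were given in accession order and pair no mice. Figures were drawn with matplotlib 3.10.9.

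The members and gene lists were chosen with earlier results of these data known. Members described singly are those with a known role, place or probe, the 8 largest called decreases without overlap, the 6 highest changes, the 4 highest control values, the 4 widest ranges over the title series and the 2 nearest the threshold on each side. Members where control replicate 1 stood apart were chosen after their values were seen. Lists held regulators, neighbours within the run, and markers of mature and immature OSNs, sustentacular cells, dorsal and ventral zones and blood. Alternatives were 3 other scalings, title series as a block, array weights, brighter clusters only, each mouse left out, both mice of series 7 left out, the t test of the methods, the addition of Olfr574, and 1 cluster for each gene.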

Additional observations from a re-analysis of the deposited data

Results flagged for a closer look

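In 4 of the members described singly, a mouse lay far from the other 3 of its genotype, by the share of the group's range that its gap to the nearest mouse took up (Dixon's ratio). For Olfr570 the ratio was 0.921, with control replicate 3 low. For Olfr633 it was 0.872, with control replicate 3 low at 9.92 against 10.29, 10.32 and 10.27. For Olfr67 it was 0.893, with control replicate 4 high at 8.66 against 8.33, 8.31 and 8.29. For Olfr692 it was 0.881, with knockout replicate 3 high. Over all 115 class I clusters the ratio was above Dixon's critical value in 7 for the controls and in 3 for the knockouts, and chance gives about 1 in 20 groups. Of the 7 in controls, 5 had control replicate 3 and 2 had control replicate 4 as the outlying mouse. Olfr570, Olfr633 and Olfr67 were called lower in each of the 8 fits that left out a mouse.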

How the results depend on the processing

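The count of class I members called lower was 77 and stayed between 56 and 89 under every alternative but 2. It was 36 when each array was centred on the mature OSN markers and 30 when only the brighter clusters were kept, where 43 members remained to be tested. Leaving out 1 mouse gave 66 to 86, and 66 members were called in each of these 8 fits and 19 in none. Centring on the mature OSN markers moved the median of all clusters with a symbol from 0.05 to 0.66. Under it the class I median was -0.21 and the mean -0.20. Called higher were 13 members and 21896 of all 23410 clusters with a symbol, and called lower were 36 members and 763 of all. Of the listed genes, 19 neighbouring genes and 21 regulators were called. This centring adds the same amount to every cluster in an array, so the class I change relative to all clusters is the same by construction. It also turned the sign of Olfr591 (0.53), Olfr65 (0.53), Olfr663 (0.44), Olfr551 (0.240), Olfr630 (0.0863), Olfr64 (0.0770), Olfr592 (0.0754) and Olfr635 (0.00795), of which Olfr591, Olfr65 and Olfr663 were called. Quantile normalization turned Olfr631 (-0.0584). Over the fits that left out a mouse, the sign also changed for Olfr547 (-0.0531 to 0.348), Olfr631 (-0.206 to 0.146) and Olfr65 (-0.149 to 0.0301), none of them called. Only the brighter clusters gave a difference between the class I and class II mean changes of 0.45 in place of 0.26. The regulators called were 4 without control replicate 1, and 4 to 6 over the fits that left out a mouse. The other scalings gave 73 (array median) and 76 (quantile), title series as a block 78, array weights 88, and the t test 67 at an unadjusted p under 0.01 and 56 after adjustment. Addition of Olfr574 gave 77, and 1 cluster for each gene 76. Among all 23410 clusters with a symbol, lower calls were 1473 in the main fit, 1715 with title series as a block and 1728 with array weights. The causes were not tested. The replicate numbers are in accession order and pair no mice, so the block was the title series, under which Olfr586 lost its call (adjusted p = 0.0576, limma). Without a detection call, a small change of a dim cluster, such as Olfr631, was not detectable here, which does not show that it is absent.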
